A study of Mus musculus with 15 samples.

Results

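The genes of peroxisome biogenesis and peroxisomal lipid metabolism were followed in the posterior eyecups of Tmem135 mutant mice. The 40 genes were taken by name and matched to the Ensembl identifiers of the count files, of 55421 genes listed in all. They were handled as 13 Pex genes, which encode the proteins that build peroxisomes, and 27 genes of peroxisomal lipid metabolism and other peroxisomal proteins, called lipid genes here. RNA was sequenced from 15 mice on the C57BL/6J background at 2.5 months of age. They were 4 wild-type (WT) mice, 6 heterozygotes (FUN025/+) and 5 homozygotes (FUN025/FUN025) for the mutant Tmem135 allele FUN025, which is carried in the germline and not limited to a cell type. The eyecup was collected with the neural retina removed, and the eyecups of 1 mouse were pooled into 1 library. Both sexes were used, without a label for single mice.

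Peroxisomes are single-membrane organelles that shorten very long-chain and branched fatty acids, make the early steps of ether lipid (plasmalogen) synthesis, and handle hydrogen peroxide. Their proteins are made in the cytosol and imported by the PEX proteins: some insert membrane proteins, some carry and dock matrix enzymes, and some form a ubiquitin ligase and an export motor that recycle the receptors. The retinal pigment epithelium, a main cell layer of the eyecup, takes up the lipid-rich tips of photoreceptor outer segments every day, and very long-chain fatty acids from them are substrates of peroxisomes.

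Total counts were 18094977 to 20029919 in WT, 10903183 to 13456349 in FUN025/+ and 11053535 to 15038383 in FUN025/FUN025 libraries, so every WT library was deeper than every mutant library. No batch is labelled, and a batch that held the WT libraries alone cannot be told apart from genotype. All 10 pigment epithelium markers (such as Rpe65 and Best1) were present in every library, with a summed level of 17560 to 21400 CPM in WT, 17420 to 22850 in FUN025/+ and 17210 to 21750 in FUN025/FUN025 libraries. CPM is the number of counts of a gene per 1000000 counts of the genes tested, after TMM scaling. None of these 10 markers was called against WT in either mutant. RNA of other tissues was also present. The summed level of 10 rod photoreceptor markers was 352.5 to 2508 CPM in WT, 185 to 777 in FUN025/+ and 183 to 508 in FUN025/FUN025 libraries. That of 10 striated muscle markers was 4217 to 7812, 2313 to 5893 and 3559 to 4368 CPM. Against WT, 0 rod markers were called in FUN025/+ and 1 was lower in FUN025/FUN025, and of the muscle markers 3 and 2 were lower. The median log2 fold change from WT was -1.81 and -1.91 over the rod markers and -0.64 and -0.61 over the muscle markers. The 2508 CPM of rod markers were in WT replicate 2, while WT replicates 1, 3 and 4 had 820.6, 563.1 and 352.5 CPM. How far the rod medians rest on that library was not tested. Of 7 endothelial markers 1 and 5 were lower, of 7 macrophage markers 0 and 1 were higher, and of 6 fibroblast markers none was called. None of these markers was at 0 in any library. The part of these tissues in the results was not tested; a fit with rod and muscle levels as covariates is given after the single genes. In bulk tissue, fewer cells of a type and less RNA per cell cannot be told apart.

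In WT eyecups 39 of the 40 genes passed the filter on low counts, and levels per kilobase of exon (CPM divided by the summed exon length of the gene) spanned more than 2 orders of magnitude. The most abundant by this measure were Ech1, an isomerase of unsaturated fatty acid breakdown, at 57.2 ± 4.16 CPM per kb (SD, n = 4), Phyh, the phytanoyl-CoA hydroxylase that opens alpha-oxidation, at 56.5 ± 1.79, and Scp2, a sterol carrier protein and thiolase, at 47.7 ± 2.80. Ech1 and Phyh did not differ beyond their spread. Next came the fatty acid transporter Abcd3 at 27.2 ± 1.86 CPM per kb, and then the thiolase Acaa1a at 24.8 ± 0.782 and Hsd17b4, the multifunctional beta-oxidation enzyme, at 24.6 ± 1.13, which overlapped each other. The highest Pex genes were Pex19 at 22.2 ± 0.981, Pex2 at 20.3 ± 0.854 and Pex6 at 19.8 ± 1.72 CPM per kb. The lowest genes that were tested were Hacl1 at 0.8285 ± 0.138, the bile acid precursor oxidase Acox2 at 0.38 ± 0.065 and Acaa1b at 0.218 ± 0.067. Slc27a2, a very long-chain acyl-CoA synthetase of liver and kidney, had 0 counts in 12 of the 15 libraries and at most 3 in the others and was not tested. The floor of 3 counts is 0.15 to 0.275 CPM over the libraries and covers counting error only.

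**Figure D1:**
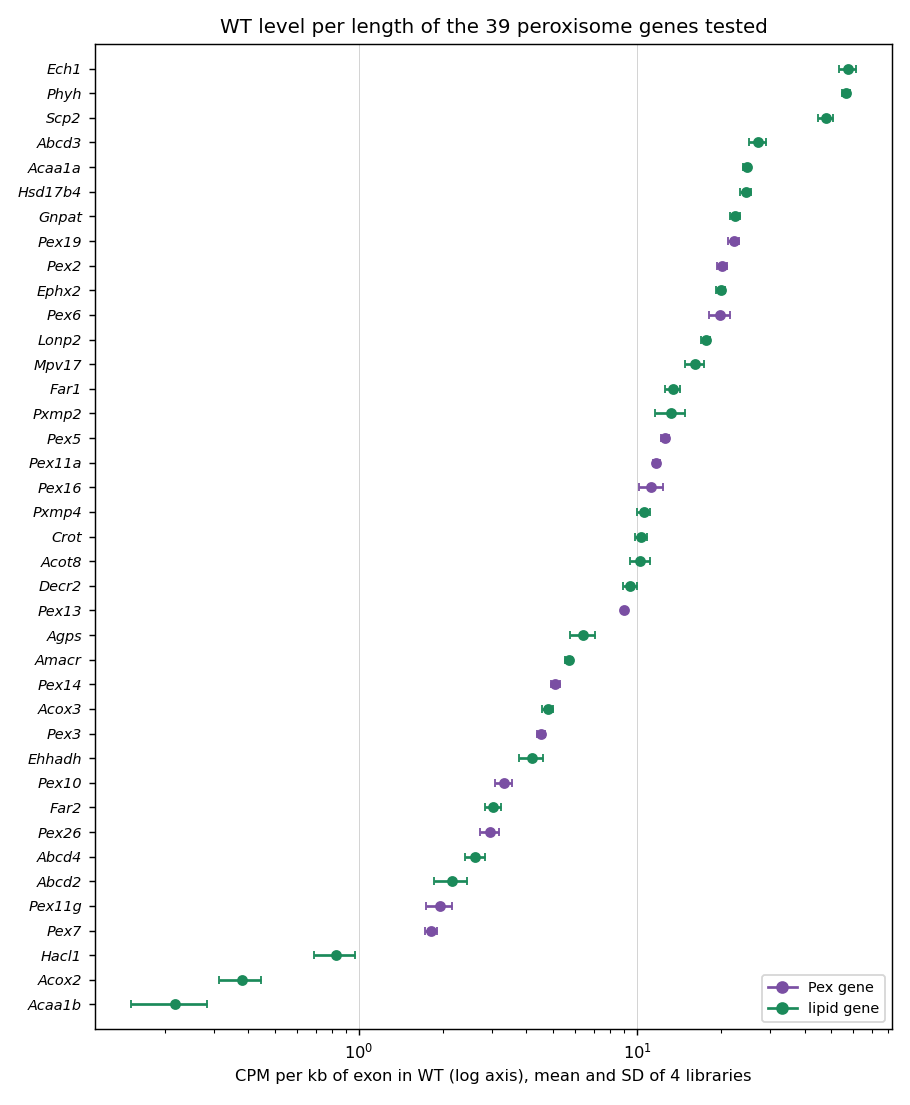
Level of the 39 tested genes in WT eyecups, in CPM per kilobase of exon on a log axis, as the mean and SD of 4 libraries (purple, Pex genes; green, lipid genes). Lipid genes hold both ends of the range, from Ech1 at 57.2 to Acaa1b at 0.218, and the Pex genes lie between Pex19 at 22.2 and Pex7 at 1.82. The place of Pex7 rests on its summed exon length of 12092 bases. Before division its WT mean, 21.95 CPM, was above those of Pex10 (10.9) and Pex11g (6.62).

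The question of the comparisons with WT was whether these genes change when 1 or both copies of Tmem135 carry the mutation. None of the 13 Pex genes was called in either mutant, and 7 of the 26 lipid genes tested were called in each, all by less than 1.5-fold. Whether the subgroups differ was not tested. In FUN025/+ eyecups 6 of 39 genes rose (Far1, Crot, Agps, Abcd3, Hacl1 and Scp2) and Mpv17 fell. In FUN025/FUN025 eyecups 5 rose (Abcd3, Far1, Hacl1, Crot and Agps), and Mpv17 and Gnpat fell. A call is a Benjamini-Hochberg adjusted p under 0.05 over all 18979 genes tested, in edgeR's quasi-likelihood test with all 15 libraries in 1 fit.

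These counts have to be read against how much of the transcriptome was called. In FUN025/+ against WT, 7.09% of all genes tested were called higher and 6.61% lower, beside 15.4% and 2.56% of the 39 genes and 23.1% and 3.85% of the lipid genes. In FUN025/FUN025 against WT it was 7.03% and 7.02% of all genes, beside 12.8% and 5.13% of the 39 and 19.2% and 7.69% of the lipid genes. The share of the Pex genes was 0% in each. The levels of the groups did not overlap for 4 of the 39 genes in FUN025/+ against WT (10.3%, against 10.9% of all genes) and for 6 in FUN025/FUN025 against WT (15.4%, against 14.8% of all genes). The share of genes that separated was thus close to that of the whole transcriptome. The median log2 fold change of the Pex genes was -0.06 in FUN025/+ and -0.03 in FUN025/FUN025 against WT, that of the 26 lipid genes tested -0.0054 and -0.0010, and that of all genes -0.0023 and -0.0071. Both comparisons use the same 4 WT libraries, so their values are given side by side and neither is a repeat of the other.

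**Figure D2:**
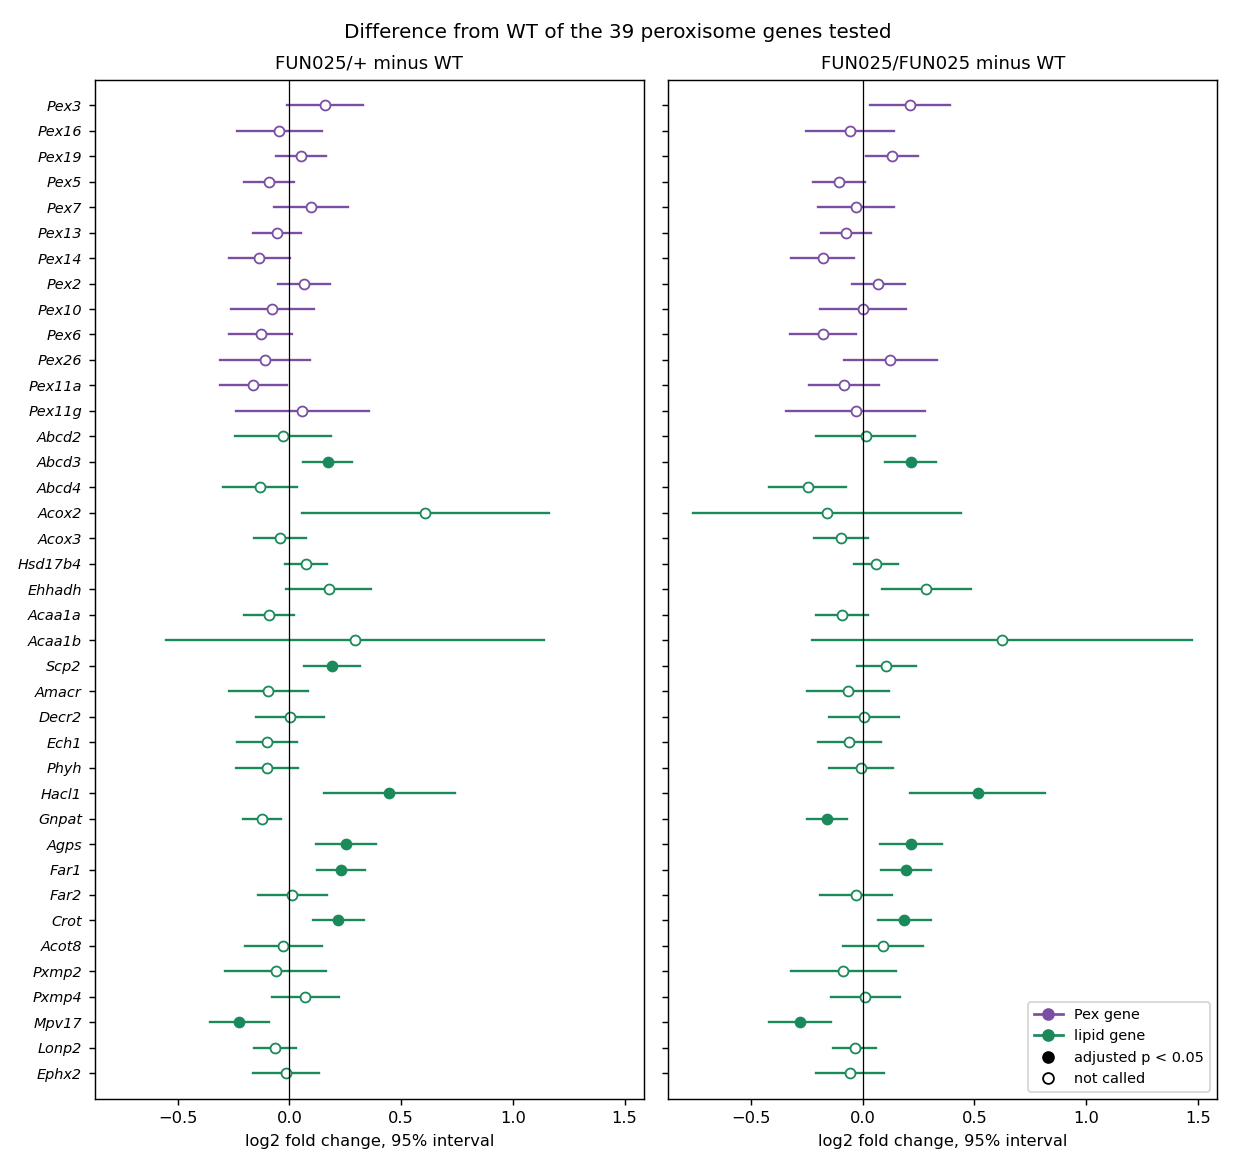
Log2 fold change from WT with its 95% interval for the 39 genes tested, FUN025/+ on the left and FUN025/FUN025 on the right, on the same axis (purple, Pex genes; green, lipid genes; filled, adjusted p under 0.05). All filled points are lipid genes, and the intervals of the Pex genes stay between -0.34 and 0.39.

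With all 15 libraries, genotype alone in the fit and no offset, none of the 13 Pex genes was called against WT by edgeR, DESeq2 or limma-voom. Calls of single Pex genes in other fits are given at the end. At an unadjusted p under 0.05 there were 1 in FUN025/+ (7.69%, against 28.8% of all genes tested) and 4 in FUN025/FUN025 eyecups (30.8%, against 28.6% of all genes). Among the genes that insert membrane proteins, Pex3, the docking receptor of the peroxisomal membrane, had 21.4 ± 0.669 CPM in WT, 23.9 ± 1.70 in FUN025/+ and 24.9 ± 3.17 in FUN025/FUN025 eyecups (SD, n = 4, 6 and 5, as for all group means), a difference from WT of 0.16 on the log2 scale (adjusted p = 0.207) in the former and 0.21 (adjusted p = 0.103) in the latter. Its FUN025/+ libraries all lay above WT and its FUN025/FUN025 libraries overlapped WT. Pex19, the soluble chaperone of membrane proteins, had 84.8 ± 3.74, 88.0 ± 6.47 and 92.9 ± 2.53 CPM, and its FUN025/FUN025 libraries all lay above the WT libraries, by 0.13 on the log2 scale (adjusted p = 0.118). Pex16, which recruits Pex3, had 19.99 ± 2.01, 19.4 ± 1.67 and 19.2 ± 2.19 CPM.

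The receptors and docking genes of matrix import had means under WT in both mutants, with the exception of Pex7 in FUN025/+ eyecups. Pex5, the receptor for the C-terminal targeting signal, had 49.8 ± 1.71, 46.7 ± 2.25 and 46.2 ± 3.17 CPM. The receptor for the N-terminal signal, Pex7, had 21.9 ± 1.08, 23.4 ± 2.18 and 21.5 ± 1.99 CPM. The docking genes were at 41.7 ± 0.200, 40.1 ± 2.69 and 39.5 ± 1.44 CPM for Pex13 and at 31.9 ± 1.21, 29.1 ± 1.91 and 28.1 ± 2.33 CPM for Pex14. The FUN025/FUN025 libraries of Pex13 all lay just under WT, whose libraries were close together (adjusted p = 0.386). Pex14 had the lowest adjusted p of the Pex genes against WT, 0.0816 in FUN025/FUN025 for a difference of -0.18 (log2), and 28.3% of its exon bases are overlapped by a gene on the other strand, whose reads the counts may not separate.

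The receptor recycling and proliferation genes gave small values of both signs. The ubiquitin ligase genes were at 46.0 ± 1.94, 48.1 ± 3.38 and 48.3 ± 1.90 CPM for Pex2 and at 10.9 ± 0.736, 10.4 ± 0.872 and 10.9 ± 0.912 for Pex10. Pex6, an ATPase of the export motor, had 75.2 ± 6.52, 68.8 ± 5.65 and 66.5 ± 4.14 CPM, which is -0.18 on the log2 scale in FUN025/FUN025 (adjusted p = 0.0972), and Pex26, its membrane anchor, had 16.7 ± 1.3, 15.5 ± 1.65 and 18.2 ± 2.22 CPM. The division genes of the Pex11 family were at 37.3 ± 1.03, 33.4 ± 3.48 and 35.2 ± 2.66 CPM for Pex11a and at 6.62 ± 0.694, 6.88 ± 1.02 and 6.46 ± 1.33 for Pex11g. For every Pex gene the 95% interval of the difference from WT lay between 0.789-fold and 1.31-fold in FUN025/FUN025 eyecups, and between 0.806-fold and 1.28-fold in FUN025/+ eyecups. The summed level of the 13 Pex genes was 455 to 480 CPM in WT, 441 to 465 in FUN025/+ and 446 to 473 in FUN025/FUN025 libraries, so the groups overlapped. These intervals hold for the fit without covariates: with rod and muscle levels as covariates several Pex genes lay further from WT, as given with that fit.

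Ether lipid synthesis held the calls of opposite sign. Its peroxisomal steps are run by Gnpat, which acylates dihydroxyacetone phosphate, by Agps, which exchanges that acyl group for a fatty alcohol, and by the reductases Far1 and Far2, which supply the alcohol. Agps and Far1 rose in both mutants, Gnpat fell in FUN025/FUN025 eyecups, and Far2 gave no call. Of these 4 genes, 50% were higher in each mutant (against 7.09% and 7.03% of all genes) and 25% lower in FUN025/FUN025 (against 7.02%). In fits given below, Agps and Far1 lost their calls with an offset for G and C content, and all 3 called genes lost theirs with rod and muscle covariates.

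Agps (chr2:75832177-75931350, plus strand, GRCm38) had 64.7, 58.9, 65.8 and 52.0 CPM in the WT libraries. In FUN025/+ libraries it ranged from 67.3 over a median of 70.9 to 80.1, and in FUN025/FUN025 libraries it was 69.6, 69.0, 69.7, 67.1 and 75.0 CPM. All mutant libraries lay above all WT libraries. The log2 fold change was 0.25 (SE 0.064, adjusted p = 0.0137), or 1.19-fold, in FUN025/+ and 0.22 (SE 0.067, adjusted p = 0.0386), or 1.16-fold, in FUN025/FUN025 eyecups.

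Far1 (chr7:113513834-113571511, plus strand), the main fatty acyl-CoA reductase, had 116, 112, 105 and 100.9 CPM in WT and 120.3, 127 and 132 as lowest, median and highest value in FUN025/+ libraries. In FUN025/FUN025 libraries it had 132, 123, 131, 114 and 120.3 CPM. All FUN025/+ libraries stood clear of WT, and 1 FUN025/FUN025 library fell within the WT range. Far1 was called in both, at 0.23 (SE 0.052, adjusted p = 0.00645) in FUN025/+ and 0.20 (SE 0.0535, adjusted p = 0.0211) in FUN025/FUN025 eyecups. Far2, which also makes fatty alcohols, had 22.2 ± 1.41, 22.4 ± 1.095 and 21.8 ± 2.23 CPM, and the 95% intervals of its log2 fold change were -0.14 to 0.17 and -0.19 to 0.13.

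Gnpat (chr8:124863033-124890057, plus strand) had 85.3, 78.2, 78.8 and 80.2 CPM in WT, and 71.3, 73.5 and 79.1 as lowest, median and highest value in FUN025/+ libraries. The FUN025/FUN025 libraries were at 71.2, 73.8, 72.5, 71.3 and 72.0 CPM, all under every WT library. The change was -0.16 (SE 0.043, adjusted p = 0.019), or 0.895-fold, in FUN025/FUN025. In FUN025/+ it was -0.12 (SE 0.041, adjusted p = 0.0567), just outside the threshold, and the groups overlapped. In FUN025/+ it was called by DESeq2 (adjusted p = 0.0474) and not by limma-voom (adjusted p = 0.0537), and with the pigment epithelium level as a covariate edgeR called it (adjusted p = 0.0445). Other gene models cover 10.3% of the exon bases of Gnpat, in part on the other strand.

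**Figure D3:**
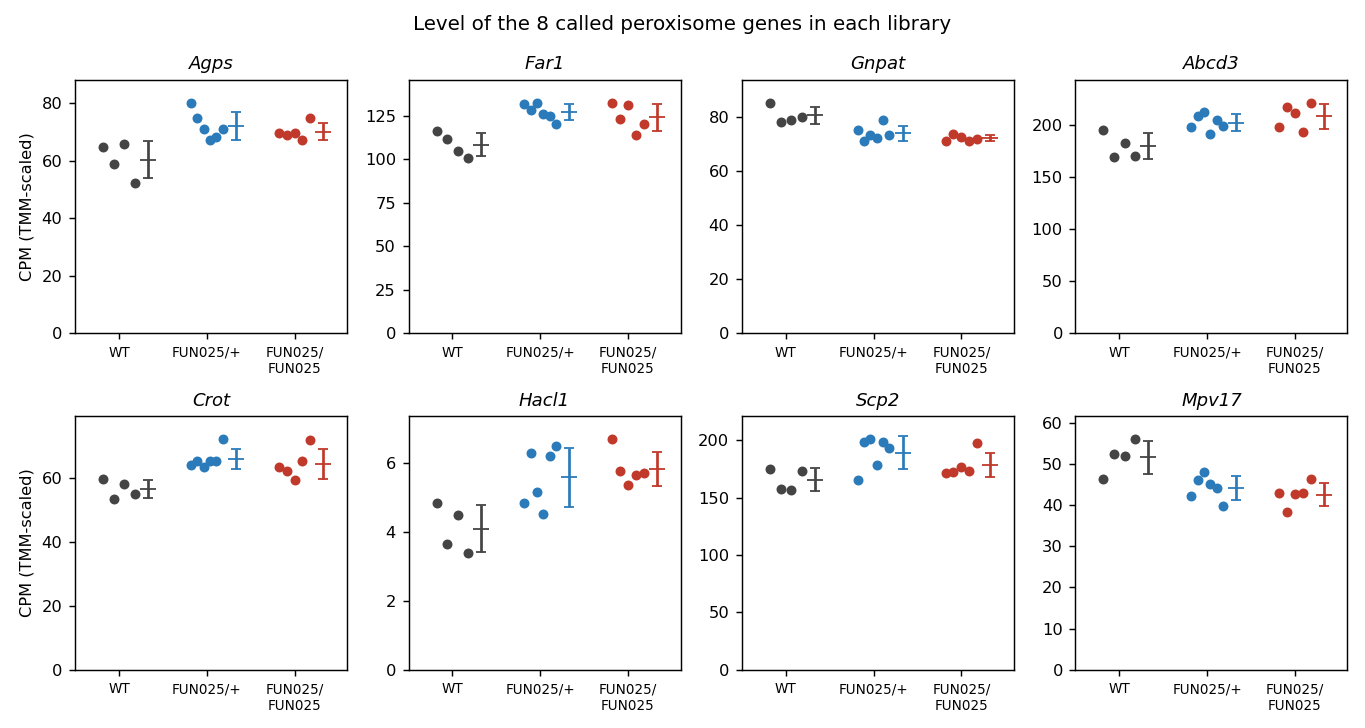
Level in CPM (axis from 0) of the 8 genes called in either comparison with WT, with a point for each library and the mean and SD beside it (grey, WT, n = 4; blue, FUN025/+, n = 6; red, FUN025/FUN025, n = 5). Agps is above WT in all mutant libraries, Gnpat and Mpv17 are below WT in all 5 FUN025/FUN025 libraries, and for Scp2 the genotypes overlap.

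The sequence before the start of the called genes was examined because several rose together. RefSeq promoters (GRCm38.p6) were found for 32 of the 40 genes. Of the 7 genes called in FUN025/FUN025 eyecups, 3 have 250 bases before the start that hold no annotated exon, and these are shown 5′ to 3′ on the strand of the gene, with CCAAT boxes in either orientation in capitals. They lie at chr2:75831927-75832176 (plus strand) for Agps, chr7:113513584-113513833 (plus strand) for Far1 and chr3:121815303-121815552 (minus strand) for Abcd3.
Agps: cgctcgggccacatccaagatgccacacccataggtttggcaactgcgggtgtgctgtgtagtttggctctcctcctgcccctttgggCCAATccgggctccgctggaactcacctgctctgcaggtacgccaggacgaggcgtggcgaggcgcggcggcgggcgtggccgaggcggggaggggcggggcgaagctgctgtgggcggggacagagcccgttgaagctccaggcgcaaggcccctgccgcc
Far1: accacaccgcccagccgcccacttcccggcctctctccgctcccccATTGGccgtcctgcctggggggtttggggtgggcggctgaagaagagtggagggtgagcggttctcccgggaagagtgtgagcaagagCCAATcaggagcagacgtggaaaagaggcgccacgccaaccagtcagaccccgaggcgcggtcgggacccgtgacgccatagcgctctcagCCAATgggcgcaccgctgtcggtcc
Abcd3: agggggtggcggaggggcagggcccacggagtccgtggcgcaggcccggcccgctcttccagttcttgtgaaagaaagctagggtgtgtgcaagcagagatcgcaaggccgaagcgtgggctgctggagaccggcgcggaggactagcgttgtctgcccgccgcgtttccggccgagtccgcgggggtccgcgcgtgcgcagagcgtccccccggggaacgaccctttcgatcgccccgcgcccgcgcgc

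The Agps promoter holds 1 CCAAT box, whose first base is 162 bases before the start, the Far1 promoter holds 3, at 204, 116 and 25 bases, and the Abcd3 promoter holds none. Bases G and C make up 70% of the Agps, 67.6% of the Far1 and 72% of the Abcd3 sequence. Of the 32 genes, 1 was counted when any of its promoters held the motif, while the share of all is that of single promoters. There were 32851 promoters for 27025 genes, so these shares are not like for like. CCAAT, read on both strands, was found in 13 of the 32 genes and in 33.8% of all 32851 promoters. The nuclear receptor half-site AGGTCA was found in 3 of the 32 (Pex11g, Slc27a2 and Scp2) and in 14% of all promoters. Its direct repeat with 1 base between, AGGTCANAGGTCA, in which N is any base and which contains that half-site, is bound by PPAR receptors, known regulators of peroxisomal enzymes. It was found in 0 of the 32 and in 0.0335% of all promoters. The E-box CACGTG was found in 2 (Gnpat and Lonp2) and in 6.02% of all. The letters TCACCCCAC of the sterol response element were found in 0 and in 0.496% of all. GGGCGG, the GC box, was in 23 of the 32 and in 32.7% of all. Of these windows a match, or the lack of one, is a description only. The direct repeat and TCACCCCAC are so rare over all promoters that 0 among 32 genes carries no information.

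Alpha-oxidation shortens branched fatty acids such as phytanic acid by a single carbon. Hacl1 (chr14:31598730-31641286, minus strand), the lyase of this pathway, was the gene with the largest fold change among those called. It had 4.84, 3.66, 4.5 and 3.39 CPM in WT, 4.52, 5.69 and 6.51 as lowest, median and highest value in FUN025/+, and 6.70, 5.77, 5.38, 5.67 and 5.72 CPM in FUN025/FUN025 libraries. The FUN025/FUN025 libraries were clear of WT and the FUN025/+ libraries overlapped it. The log2 fold changes were 0.45 (SE 0.14, adjusted p = 0.0405) and 0.51 (SE 0.144, adjusted p = 0.024), or 1.36-fold and 1.43-fold, with a 95% interval of 1.16-fold to 1.76-fold in FUN025/FUN025. Its level is low, at 52 to 102 counts a library, and 33.3% of its exon bases overlap Gm49387 or, on the other strand, Btd. Phyh, which acts before it, had 107 ± 3.40, 99.9 ± 10.9 and 106 ± 5.83 CPM and gave no call (adjusted p = 0.342 and 0.957).

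Of the transporters, Abcd3 was called and its relatives were not. Abcd3 (chr3:121758774-121815302, minus strand), an ABC transporter that carries fatty acids and bile acid precursors into peroxisomes, had 195, 169, 183 and 170.4 CPM in WT. It had 191, 202 and 212 as lowest, median and highest value in FUN025/+ libraries, and 198, 217, 211, 193 and 221 CPM in FUN025/FUN025 libraries. WT replicate 1 was the only WT library within the range of the mutants. The change was 0.17 (SE 0.052, adjusted p = 0.0348), or 1.13-fold, and 0.21 (SE 0.054, adjusted p = 0.0138), or 1.16-fold. Abcd2, a transporter of very long-chain fatty acids, had 12.8 ± 1.75, 12.5 ± 1.27 and 12.9 ± 1.15 CPM. Abcd4, known as a lysosomal vitamin B12 transporter, had 20.99 ± 1.72, 19.1 ± 1.89 and 17.7 ± 0.737 CPM, which is -0.25 on the log2 scale in FUN025/FUN025 (adjusted p = 0.0537), and DESeq2 (adjusted p = 0.048) and limma-voom (adjusted p = 0.0461) called it lower there.

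Of the 10 beta-oxidation genes 1 was called in FUN025/+ (10%, against 7.09% of all genes higher and 6.61% lower) and 0 in FUN025/FUN025. In the latter 1 was at an unadjusted p under 0.05 (10%, against 28.6% of all genes), and DESeq2 and limma-voom each called 1, Ehhadh. All genes gave 1522 higher and 1517 lower calls by DESeq2 there, and 1443 and 1413 by limma-voom. Scp2 (chr4:108043839-108144998, minus strand) had 175, 158, 157 and 173 CPM in WT, 165, 196 and 201 as lowest, median and highest value in FUN025/+, and 172, 172, 177, 174 and 197 CPM in FUN025/FUN025 libraries. The genotypes overlapped. It was called in FUN025/+ (0.19, SE 0.060, adjusted p = 0.0432) and not in FUN025/FUN025 eyecups (0.11, SE 0.062, adjusted p = 0.279). Between the mutants it differed by -0.08 on the log2 scale (adjusted p = 0.995), so a difference between them was not shown. With the pigment epithelium level as a covariate, Scp2 was called in both (0.15, adjusted p = 0.0184 and 0.0237), and Ech1 was called lower in FUN025/+ (-0.14, adjusted p = 0.0284). Of the 31-base stretches of Scp2, 33.4% also occur in other genes, among them the pseudogene Scp2-ps2.

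The acyl-CoA oxidases of branched substrates had 1.41 ± 0.24, 2.15 ± 0.628 and 1.27 ± 0.477 CPM for Acox2, and 54.9 ± 2.40, 53.4 ± 3.26 and 51.3 ± 3.36 for Acox3. The bifunctional enzymes were at 83.6 ± 3.85, 88.0 ± 3.10 and 87.1 ± 3.44 CPM for Hsd17b4 and at 12.4 ± 1.26, 14.1 ± 1.49 and 15.2 ± 0.957 for Ehhadh. Ehhadh, a classical PPAR target, was 0.18 above WT on the log2 scale in FUN025/+ (adjusted p = 0.215) and 0.28 in FUN025/FUN025 (adjusted p = 0.0519), the latter just outside the threshold. DESeq2 (adjusted p = 0.0387) and limma-voom (adjusted p = 0.0361) called it higher in FUN025/FUN025. The thiolases had 109 ± 3.45, 103 ± 5.19 and 102 ± 7.76 CPM for Acaa1a and 0.427 ± 0.131, 0.522 ± 0.274 and 0.677 ± 0.260 for Acaa1b. These near copies share 31-base stretches (23.4% of Acaa1a and 50.1% of Acaa1b also occur elsewhere), so their counts could be split between them.

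The racemase Amacr had 14.8 ± 0.422, 13.9 ± 1.51 and 14.1 ± 1.03 CPM. The dienoyl-CoA reductase Decr2 had 25.1 ± 1.49, 25.1 ± 2.31 and 25.2 ± 1.48, with 95% intervals of the difference from WT of 0.903-fold to 1.11-fold and 0.9-fold to 1.119-fold. Ech1 had 131 ± 9.5, 122 ± 10.3 and 125 ± 7.69 CPM.

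Crot and Acot8 release the shortened acyl chains, as carnitine esters and as free acids. Crot (chr5:8966033-8997324, minus strand), the carnitine octanoyltransferase, had 59.6, 53.5, 58.1 and 55.0 CPM in WT and 63.5, 65.2 and 72.0 as lowest, median and highest value in FUN025/+ libraries. In FUN025/FUN025 libraries it had 63.5, 62.0, 59.4, 65.3 and 71.8 CPM. All FUN025/+ libraries lay above WT, and 1 FUN025/FUN025 library fell just under the highest WT library. The change was 0.22 (SE 0.055, adjusted p = 0.0127) and 0.19 (SE 0.057, adjusted p = 0.035), or 1.16-fold and 1.14-fold. The thioesterase Acot8 had 20.5 ± 1.70, 20.1 ± 1.82 and 21.9 ± 1.91 CPM and gave no call.

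By edgeR without covariates, Mpv17 was the only gene of the 40 that fell in both comparisons (DESeq2 also called Gnpat lower in both), and it had the smallest adjusted p of the 40 in FUN025/FUN025. It was listed with the peroxisomal proteins, although its protein is known from the inner mitochondrial membrane. Mpv17 (chr5:31140654-31154251, minus strand) had 46.3, 52.5, 52.0 and 56.0 CPM in WT, 39.8, 44.7 and 48.1 as lowest, median and highest value in FUN025/+, and 42.9, 38.3, 42.7, 42.9 and 46.3 CPM in FUN025/FUN025 libraries. The FUN025/+ libraries overlapped WT, and the highest FUN025/FUN025 library lay just under the lowest WT library. The change was -0.22 (SE 0.063, adjusted p = 0.0255), or 0.857-fold, and -0.28 (SE 0.066, adjusted p = 0.00908), or 0.824-fold. Gm29609 overlaps 14.4% of its exon bases. The other genes of this class gave no call: the channel gene Pxmp2 had 15.9 ± 1.98, 15.2 ± 1.82 and 14.99 ± 1.86 CPM, the membrane protein gene Pxmp4 32.8 ± 1.82, 34.5 ± 2.14 and 33.1 ± 3.53, the protease gene Lonp2 94.5 ± 3.41, 90.3 ± 3.89 and 92.1 ± 3.46, and the epoxide hydrolase gene Ephx2 49.6 ± 1.84, 49.2 ± 5.10 and 47.7 ± 3.57 CPM.

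The mutants were also compared with each other, which shows whether a further mutant copy changes these genes. Of the 39 genes 0 were called by edgeR, DESeq2 or limma-voom, where edgeR called 0.327% of all genes higher and 0.195% lower in FUN025/FUN025, and for 0 of the 39 did the groups fail to overlap (1.12% of all genes). At an unadjusted p under 0.05 there were 2 (5.13%, against 6.23% of all genes), Pex26 with 0.23 on the log2 scale (adjusted p = 0.631) and Acox2 with -0.77 (adjusted p = 0.443). For the 8 genes called against WT, the log2 fold changes between the mutants ran from -0.08 for Scp2 to 0.07 for Hacl1. The 95% interval was -0.17 to 0.09 for Agps, -0.14 to 0.07 for Far1 and -0.12 to 0.04 for Gnpat. An interval around 0 does not show that the mutants are equal.

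Base composition moved with the calls. The genes called higher had exons of 36.9% to 48.4% G and C, with a median of 44.3% in FUN025/+ and 44.1% in FUN025/FUN025, against a median of 49.7% over all genes tested. Over the transcriptome, the median log2 fold change from WT was 0.09 in FUN025/+ and 0.08 in FUN025/FUN025 in the 3798 genes lowest in G and C, and -0.10 in both in the 3791 that were highest, when genes were put in 5 classes of like size. Of the 39 genes, the 6 in the lowest class had medians of 0.11 and 0.13, and the 4 in the highest class -0.06 and -0.03. Between the mutants, the class medians lay between -0.0059 and 0.0006. Mpv17 (48.4%) and Gnpat (50.1%) lie near the middle of the range.

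**Figure D4:**
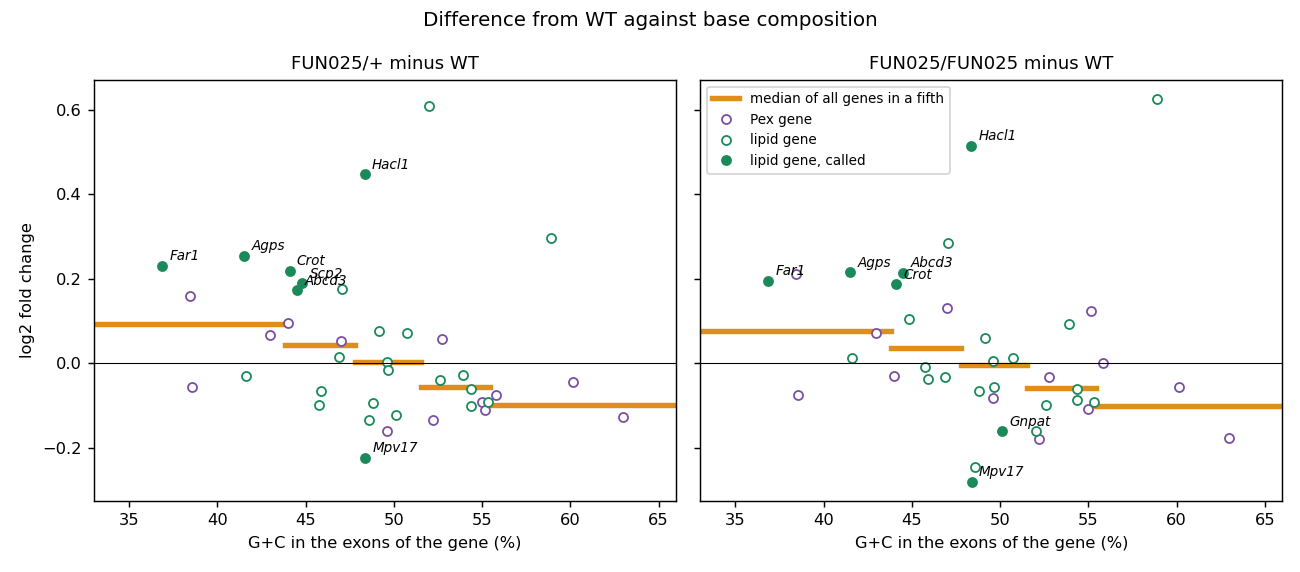
Log2 fold change from WT against the share of G and C in the exons of each gene for FUN025/+ (left) and FUN025/FUN025 (right); orange bars give the median of all genes in each of 5 classes by G and C. Far1, Agps, Crot and Abcd3 lie at the low side, where the median of all genes is above 0, while Hacl1, Gnpat and Mpv17 lie in the middle class.

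With an offset that takes out the trend with G and C in each library, 1 gene stayed called in FUN025/+ against WT, Mpv17 at -0.24 (adjusted p = 0.0344), where all genes gave 926 higher and 798 lower calls. In FUN025/FUN025 the calls of 3 genes stayed: Hacl1 at 0.49 (adjusted p = 0.0392), Mpv17 at -0.30 (adjusted p = 0.00958) and Gnpat at -0.17 (adjusted p = 0.0261). The lower calls of 2 further genes were made with the offset and not without it, Abcd4 at -0.27 (adjusted p = 0.0482) and Pex13 at -0.17 (adjusted p = 0.0495). All genes then gave 895 higher and 932 lower calls. Far1 then had 0.13 (adjusted p = 0.117) and 0.09 (adjusted p = 0.289), and Agps 0.18 (adjusted p = 0.0924) and 0.13 (adjusted p = 0.22). Crot had 0.16 (adjusted p = 0.0807) and 0.13 (adjusted p = 0.189), and Abcd3 0.12 (adjusted p = 0.182) and 0.16 (adjusted p = 0.0884). Scp2 had 0.14 in FUN025/+ (adjusted p = 0.19). Hacl1 lost its call in FUN025/+ at a value close to that without the offset, 0.43 (adjusted p = 0.0616).

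The covariates for rod and muscle were the mean log2 CPM of the rod markers and of the muscle markers in each library. With them, none of the 39 genes was called in edgeR against WT in either mutant. At unadjusted p under 0.05 there were 7 and 9 of them (15.1% and 18.1% of all genes were at such a p). All genes then gave 128 higher and 104 lower calls in FUN025/+, and 341 and 264 in FUN025/FUN025. The marker levels themselves differed by genotype, with medians of -1.81 and -1.91 for rod and -0.64 and -0.61 for muscle markers. This fit therefore cannot well separate genotype from them. Far1 was at 0.22 (log2, adjusted p = 0.309) and 0.19 (adjusted p = 0.285), and Mpv17 had -0.40 (adjusted p = 0.144) and -0.44 (adjusted p = 0.0513). In FUN025/+ Far1 was at 0.23 without covariates, and its unadjusted p in the edgeR test went from 2.88e-04 to 0.0433 with them. Agps had 0.08 and 0.07 (adjusted p = 0.804 and 0.793) and Gnpat -0.02 and -0.07 (adjusted p = 0.942 and 0.669). Hacl1 had 0.24 and 0.32 (adjusted p = 0.742 and 0.543) and Crot 0.14 and 0.11 (adjusted p = 0.585 and 0.617). Abcd3 had 0.14 and 0.18 (adjusted p = 0.594 and 0.35) and Scp2 0.15 and 0.06 (adjusted p = 0.516 and 0.791). The direction of all 8 genes was the same in all of these fits. The values of some Pex genes were further from WT with these covariates, without a call. Pex6 was at -0.40 (adjusted p = 0.129) in FUN025/+ and -0.42 (adjusted p = 0.0528) in FUN025/FUN025, Pex14 at -0.36 (adjusted p = 0.151) and -0.39 (adjusted p = 0.0592), and Pex5 at -0.30 (adjusted p = 0.171) and -0.29 (adjusted p = 0.0961). Pex11g was at -0.45 (adjusted p = 0.477), where it was 0.06 without covariates, and at -0.48 (adjusted p = 0.35), and Pex19 at 0.16 (adjusted p = 0.417) and 0.22 (adjusted p = 0.157). The sign also turned for Pex2, Pex7 and Pex26 in FUN025/+ and for Pex2 and Pex10 in FUN025/FUN025, none of them called in either fit. Lipid genes that were not called also moved. Phyh turned from -0.10 to 0.19 (adjusted p = 0.39) in FUN025/+ and from -0.01 to 0.24 (adjusted p = 0.168) in FUN025/FUN025, and Abcd2 was at 0.34 in both (adjusted p = 0.452 and 0.351). Acaa1a was at -0.31 (adjusted p = 0.123) and -0.29 (adjusted p = 0.0777), Abcd4 at -0.37 (adjusted p = 0.22) and -0.44 (adjusted p = 0.0742), and Ehhadh at 0.39 (adjusted p = 0.344) and 0.47 (adjusted p = 0.147).

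**Figure D5:**
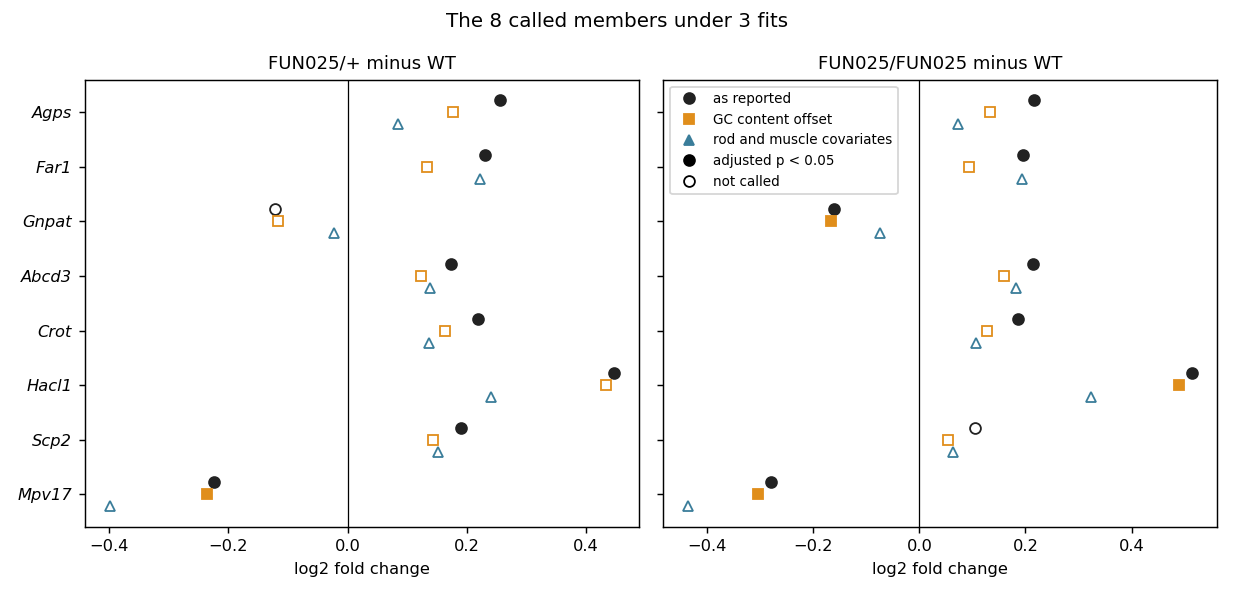
Log2 fold change from WT of the 8 called genes in the fit as reported (circles), with an offset for G and C content (squares) and with rod and muscle levels as covariates (triangles); filled symbols have an adjusted p under 0.05. Mpv17 and Gnpat keep their value with the offset, Far1 and Agps move toward 0, and no triangle is filled.

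Single libraries also decided some calls. Against WT, the 7 calls in FUN025/+ became 3 without WT replicate 2, 3 or 4 and 4 without FUN025/+ replicate 2 or 3. Calls over all genes fell too: from 1345 higher and 1255 lower, they became 1047 and 846, 1093 and 916, and 857 and 576 without WT replicate 2, 3 and 4, and 1173 and 1067, and 1078 and 914, without FUN025/+ replicate 2 and 3. The 7 calls in FUN025/FUN025 became 4 without WT replicate 2, 3 without WT replicate 4 and 4 without FUN025/FUN025 replicate 1. Over all genes, 1334 higher and 1332 lower calls became 1166 and 940, 866 and 653, and 1180 and 931 in these fits. Agps, Far1 and Crot in FUN025/+, and Abcd3 and Mpv17 in FUN025/FUN025, were called in all 15 fits that left out 1 library. In FUN025/+ the call was kept in 12 of these fits for Mpv17, 9 for Abcd3, 8 for Hacl1 and 6 for Scp2. In FUN025/FUN025 it was kept in 13 for Gnpat, 12 for Far1 and for Hacl1, 11 for Crot and 9 for Agps. The 15 fits include those without a library of the genotype not compared, which enters only through the shared fit. These are 5 fits for FUN025/+ and 6 for FUN025/FUN025 against WT, so the tallies make the calls look steadier. Agps in FUN025/FUN025 lost its call without WT replicate 2 or 4 and without FUN025/FUN025 replicate 1, 2, 3 or 5.

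A further list of 49 genes of peroxisomal proteins, with Tmem135 among them, gives the rest of the organelle. Of these 39 passed the filter on low counts; 6 rose and 1 fell in FUN025/+, 5 rose and 2 fell in FUN025/FUN025 against WT, and 1 rose between the mutants. These are 15.4% and 2.56% of the 39 in FUN025/+, beside 7.09% and 6.61% of all genes, then 12.8% and 5.13% in FUN025/FUN025, beside 7.03% and 7.02%, and 2.56% higher between the mutants, beside 0.327%. The 10 that did not pass are mostly enzymes known from liver and kidney, such as Uox and Hao1. The median log2 fold change of the 39 was 0.015 in FUN025/+ and 0.05 in FUN025/FUN025 against WT.

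Tmem135 itself, whose protein resides in mitochondria and peroxisomes, had 66.04, 63.8, 66.2 and 59.8 CPM in WT, 66.1, 74.3 and 86.3 as lowest, median and highest value in FUN025/+, and 85.0, 89.3, 94.0, 82.5 and 90.8 CPM in FUN025/FUN025 libraries. The FUN025/FUN025 libraries lay above WT, and the lowest FUN025/+ library fell just within the WT range. Tmem135 rose in both comparisons with WT, by 0.23 (SE 0.065, adjusted p = 0.0248) and 0.47 (SE 0.067, adjusted p = 0.000148). Between the mutants it had 0.24 (SE 0.0605, adjusted p = 0.126). A gene count shows the amount of transcript and not whether it carries the mutation.

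Idh1, the NADP isocitrate dehydrogenase of cytosol and peroxisomes, was the only gene of this list that was called in all 3 comparisons. It had 78.6, 75.7, 74.5 and 77.1 CPM in WT, 86.7, 91.6 and 93.6 as lowest, median and highest value in FUN025/+, and 106, 104, 108, 107 and 114 CPM in FUN025/FUN025 libraries. The genotypes did not overlap. The log2 fold changes were 0.25 (SE 0.040, adjusted p = 0.000518), 0.50 (SE 0.042, adjusted p = 3.67e-07) and, between the mutants, 0.25 (SE 0.0375, adjusted p = 0.00161). None of the 40 genes had this stepwise pattern in its calls.

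The other 6 called genes of the list moved less evenly. Mpv17l, a relative of Mpv17, rose by 0.36 (adjusted p = 0.00765) and 0.45 (adjusted p = 0.00198), opposite in sign to Mpv17. Acbd5, which tethers peroxisomes to the endoplasmic reticulum, rose by 0.23 in both (adjusted p = 0.0133 and 0.0161), and the polyamine oxidase Paox by 0.21 and 0.27 (adjusted p = 0.0423 and 0.015). Over 27 alternative fits the lowest value of Acbd5 was 0.15 and 0.14, and 24 kept its call in each comparison. Crat, the carnitine acetyltransferase, fell by 0.32 and 0.27 on the log2 scale (adjusted p = 0.0168 and 0.0468), opposite in sign to Crot. With rod and muscle covariates Crat was at -0.01 in both (adjusted p = 0.978 and 0.977), and its call in FUN025/FUN025 was kept in 5 of the 15 fits that left out 1 library. With those covariates the 7 genes of this list called in FUN025/+ all lost their calls (adjusted p from 0.154 for Acbd5 to 0.978 for Crat). Of the 7 called in FUN025/FUN025, Idh1 (0.49, adjusted p = 0.00206) and Tmem135 (0.53, adjusted p = 0.0216) kept theirs. The glutathione transferase Gstk1 was called in FUN025/FUN025 only (-0.26, adjusted p = 0.0338; -0.11 and 0.365 in FUN025/+), and the acyltransferase Acnat1 in FUN025/+ only (0.52, adjusted p = 0.0433; 0.23 and 0.415 in FUN025/FUN025). Between the mutants neither differed past the threshold (adjusted p = 0.799 and 0.9). Of the 15 fits that left out 1 library, 5 kept the call of Acnat1 and 6 that of Paox in FUN025/+, and 9 kept that of Gstk1 in FUN025/FUN025.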

How the data were processed

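The authors deposited 1 table per mouse with whole-number read counts for 55421 Ensembl genes, without normalization. Libraries were made after poly(A) selection with the NEBNext Ultra kit and read as paired ends. The submitters' processing notes name FastQC 0.11.8, Trimmomatic 0.39, HISAT2 2.1.0, SAMtools, featureCounts 2.0.0 and GRCm38. The strand setting and annotation release are not given in the sources used here, so reads of overlapping genes may be shared.

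Groups came from the labels. Symbols, exon lengths, overlaps and shared 31-base stretches came from GENCODE M21. After the study's methods, a variance filter took out the lowest 15% of genes (47108 left), and edgeR's filterByExpr left 18979. TMM scaling and edgeR 4.0.16 quasi-likelihood tests (robust, all 15 libraries, Benjamini-Hochberg, threshold 0.05) were used in R 4.3.3. DESeq2 1.42.0 and limma 3.58.1 (voom) were alternatives, beside other filters, covariates, a G and C offset, a replicate block and leaving out each library. Scripts were tested on simulated data. No library pair held identical values. Each library is 1 mouse.

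The 40 genes and the lists were chosen with earlier results of these data known. Each tested gene of the 40 is given by its group means, those called also by library, and of the further list Tmem135 and at most 8 called genes are named.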

Additional observations from a re-analysis of the deposited data

Results flagged for a closer look

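Dixon's ratio was computed for the CPM of each of the 39 genes in each genotype, 117 groups in all, of which about 5% would be picked out by chance alone. In 4 of them 1 library lay apart from the rest. FUN025/FUN025 replicate 5 was the highest for Pex11a, at 39.9 CPM against 33.4 to 34.8 in the other libraries of its genotype, and for Scp2, at 197 CPM against 172 to 177. FUN025/+ replicate 6 was the highest for Crot, at 72.0 CPM against 63.5 to 65.2, and without it Crot was still called in FUN025/+. WT replicate 1 was the lowest for Acot8, at 17.97 CPM against 21.3 to 21.4.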

How the results depend on the processing

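The 7 calls in FUN025/+ against WT became 3 with the replicate number as a block (Far1, Agps and Pex11a; all genes then gave 1035 higher and 975 lower calls), 1 with the offset for G and C content and 0 with rod and muscle covariates, and lay between 3 and 7 when 1 library was left out. The 7 calls in FUN025/FUN025 against WT became 0 with rod and muscle covariates and lay between 3 and 9 when 1 library was left out. Counts above 7 were also found: in FUN025/FUN025, 10 with the pigment epithelium covariate, 10 with Xist and 9 with DESeq2, limma-voom or a minimum of 10 counts, and in FUN025/+, 8 with DESeq2 and with the pigment epithelium covariate. All genes in FUN025/FUN025 gave 1334 higher and 1332 lower calls in the main fit. They gave 1474 and 1518 with the pigment epithelium covariate and 1417 and 1417 with Xist. By DESeq2 these were 1522 and 1517, and by limma-voom 1443 and 1413. With a minimum of 10 counts they were 1306 and 1284, of 16563 genes tested. In FUN025/+, 1345 and 1255 became 1550 and 1433 with DESeq2 and 1454 and 1421 with the pigment epithelium covariate. The cause of the counts above 7 was not tested. The 0 calls between the mutants held in all 27 alternatives. The replicate numbers do not pair the libraries: deviations of same-numbered libraries correlated at -0.385 to 0.133, and the block left 6 calls in FUN025/FUN025. A single Pex gene was called in 1 of 27 alternatives in FUN025/+ (Pex11a) and in 3 in FUN025/FUN025 (Pex6 with Xist as a covariate, Pex13 with the offset, Pex3 without FUN025/FUN025 replicate 4). Of 783 refits of the 29 called gene results, 630 were still called, 153 were not, and 0 changed sign. These results include those of the further list, such as Idh1 and Tmem135 in FUN025/FUN025, each called in all 27 alternatives. The refits also count the fit without the variance filter and fits without a library of the genotype not compared. The tally therefore makes the calls look steadier. Leaving out the variance filter left the same 18979 genes to be tested, so the calls could not differ. Depth limits the lowest genes: Acaa1b, at 3 to 12 counts a library, has an interval of 0.856-fold to 2.78-fold.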
